A study of Saccharomyces cerevisiae with 54 samples.

Results

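The 40 nuclear genes for the respiratory chain and the ATP synthase were followed through the first hours of sporulation in 2 diploid yeast strains. They were taken as a list of systematic gene names from the table of 6571 genes: 3 genes for complex II (SDH2, SDH3, SDH4), 9 for complex III (COR1, QCR2, QCR6, QCR7, QCR8, QCR9, QCR10, CYT1, RIP1), 9 for complex IV (COX4, COX5A, COX5B, COX6, COX7, COX8, COX9, COX12, COX13), 2 for cytochrome c (CYC1, CYC7), 3 for NADH dehydrogenases (NDI1, NDE1, NDE2) and 14 for the ATP synthase (ATP1 to ATP5, ATP7, ATP14 to ATP20 and INH1). The list uses gene names and no measured value, and all 40 passed the filter on low counts. MMTT is an S288c diploid labelled MKT1(89G)/TAO3(4477C), which carries an introduced allele at each of these genes, and SS is the wildtype S288c diploid labelled MKT1(89A)/TAO3(4477G). Both strains were grown in YPD, then in YPA with acetate, and moved to sporulation medium of potassium acetate with amino acid supplements. RNA was sampled at 0h, then at 30m and 45m, then at 1h10m, 1h40m and 2h30m, and last at 3h50m, 5h40m and 8h30m (times are written in hours, h, and minutes, m), with 3 libraries for each strain and time, and the 5 libraries that the study left out were left out of the main fits too, which leaves 24 MMTT and 25 SS libraries with 2 or 3 in each of 18 groups. Each strain is 1 genotype in 1 background, the strains with a single allele were not analysed here, and counts per gene do not show which allele a library carries. Nothing in the labels says whether replicates came from separate cultures, so each p-value measures the spread between these libraries, which may be technical.

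Respiration in yeast feeds electrons from NADH dehydrogenases and from complex II, the succinate dehydrogenase, through ubiquinone to complex III, then through cytochrome c to complex IV, which reduces oxygen. Yeast has no proton-pumping complex I, and single-subunit enzymes take its place, Ndi1 facing the matrix and Nde1 and Nde2 facing the outside of the inner membrane. The ATP synthase uses the proton gradient to make ATP, and Inh1 blocks it from running in reverse. Most of these genes are held down by glucose and switched on during growth on a non-fermentable carbon source by the Hap2/3/4/5 complex, which binds CCAAT, with Hap4 as its regulated subunit. Acetate, the carbon source of sporulation medium, can be used for energy only through respiration. Several genes come as a pair of isoforms, COX5A and CYC1 being used in air and COX5B and CYC7 being induced when oxygen is low.

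The sequence before these genes is shown because CCAAT was far more frequent there than in promoters at large. In the RefSeq R64 genome, CCAAT on either strand lay between 250 bases before and 50 bases after the start codon in 33 of 40 members (82.5%), against 2601 of 6001 nuclear protein-coding genes (43.3%). By complex the count was 3 of 3 for complex II, 7 of 9 for complex III, 8 of 9 for complex IV, 13 of 14 for the ATP synthase, 2 of 3 for the NADH dehydrogenases and 0 of 2 for cytochrome c. The 7 genes with no match in this window were ATP1, COR1, COX4, CYC1, CYC7, CYT1 and NDE2, which says only that these letters are not in it. The core of the site of the hypoxic repressor Rox1, ATTGTT on either strand, lay in 17 of 40 members (42.5%), against 35.2% of all genes. These matches are a description of letters and not a test of binding. Below are 25-base windows from 6 members whose values are described further on, each 5′ to 3′ on the coding strand of the gene, with CCAAT or its reverse complement ATTGG in capitals. The windows lie upstream of SDH4 at chrIV:817707-817731 (+ strand, motif -233 from the start codon), QCR7 at chrIV:1496715-1496739 (- strand, motif -181 from the start codon), COX5A at chrXIV:531545-531569 (+ strand, motif -170 from the start codon), ATP16 at chrIV:442855-442879 (+ strand, motif -164 from the start codon), ATP20 at chrXVI:599691-599715 (+ strand, motif -169 from the start codon) and ATP3 at chrII:315370-315394 (+ strand, motif -195 from the start codon).
SDH4: aagcattgagCCAATcgctgctgtt
QCR7: cttgttttgaCCAATcaggagcgac
COX5A: caaaaatcgtCCAATagacgttttc
ATP16: agatgcccagCCAATcaaagcgcat
ATP20: cttattcctgATTGGctgaaagaaa
ATP3: tgatggagaaCCAATgagcggcgag

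Libraries held 1455002 to 5793502 counts in the 49 used, and the 40 members took 1.41% to 2.48% of them. Values below are TMM-scaled CPM (a gene's share of its library's counts), and level comparisons between genes use CPM per kilobase of coding sequence. Marker genes of meiosis were higher in MMTT in 10 of 10 early genes at 2h30m and in 12 of 12 middle genes at 8h30m, and in bulk RNA fewer cells of a type and less RNA per cell cannot be told apart. Libraries also differed in how counts varied with gene length. The slope of log2 CPM on log2 coding length ran between -0.374 and 0.143 in MMTT (16 of 24 libraries below 0) and between -0.177 and 0.173 in SS (3 of 25 below 0). The 2 MMTT libraries at 45m carried both MMTT extremes (replicate 1, with the smallest total, -0.374, and replicate 3, 0.143), and SS replicate 1 at 3h50m had the lowest SS slope. The members are short, at 180 to 1683 bases with 24 of them up to 500, so values with gene length in the model are given beside the results. CYC1 and CYC7 are 79.2% identical over 313 bases, and how reads were shared between them is not given in the sources used here.

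Per length, levels differed widely among the members. At 1h10m in MMTT the highest means were COX7 at 3541 ± 1133 CPM per kb (SD, n = 3), ATP15, the epsilon subunit, at 2860.2 ± 165 and QCR6, an acidic subunit of complex III, at 2420.3 ± 45.8. COX7 and ATP15 overlapped within their spread and have no order, and the coding lengths used leave out UTRs. The lowest were COX5B at 145 ± 43.7, NDI1 at 169 ± 34.8, CYC1 at 202 ± 47.4 and CYC7 at 207 ± 103. COX5B, NDI1 and both cytochrome c genes overlapped within their spread, so these neighbours have no order. The aerobic isoform COX5A stood at 1231 ± 282 CPM per kb beside the hypoxic COX5B in the same libraries. In SS at 1h10m the order at the extremes differed, with QCR6 at 3539.8 ± 638 CPM per kb above ATP15 and above COX7 at 2417 ± 187, and CYC7 lowest at 55.3 ± 16.2.

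**Figure D1:**
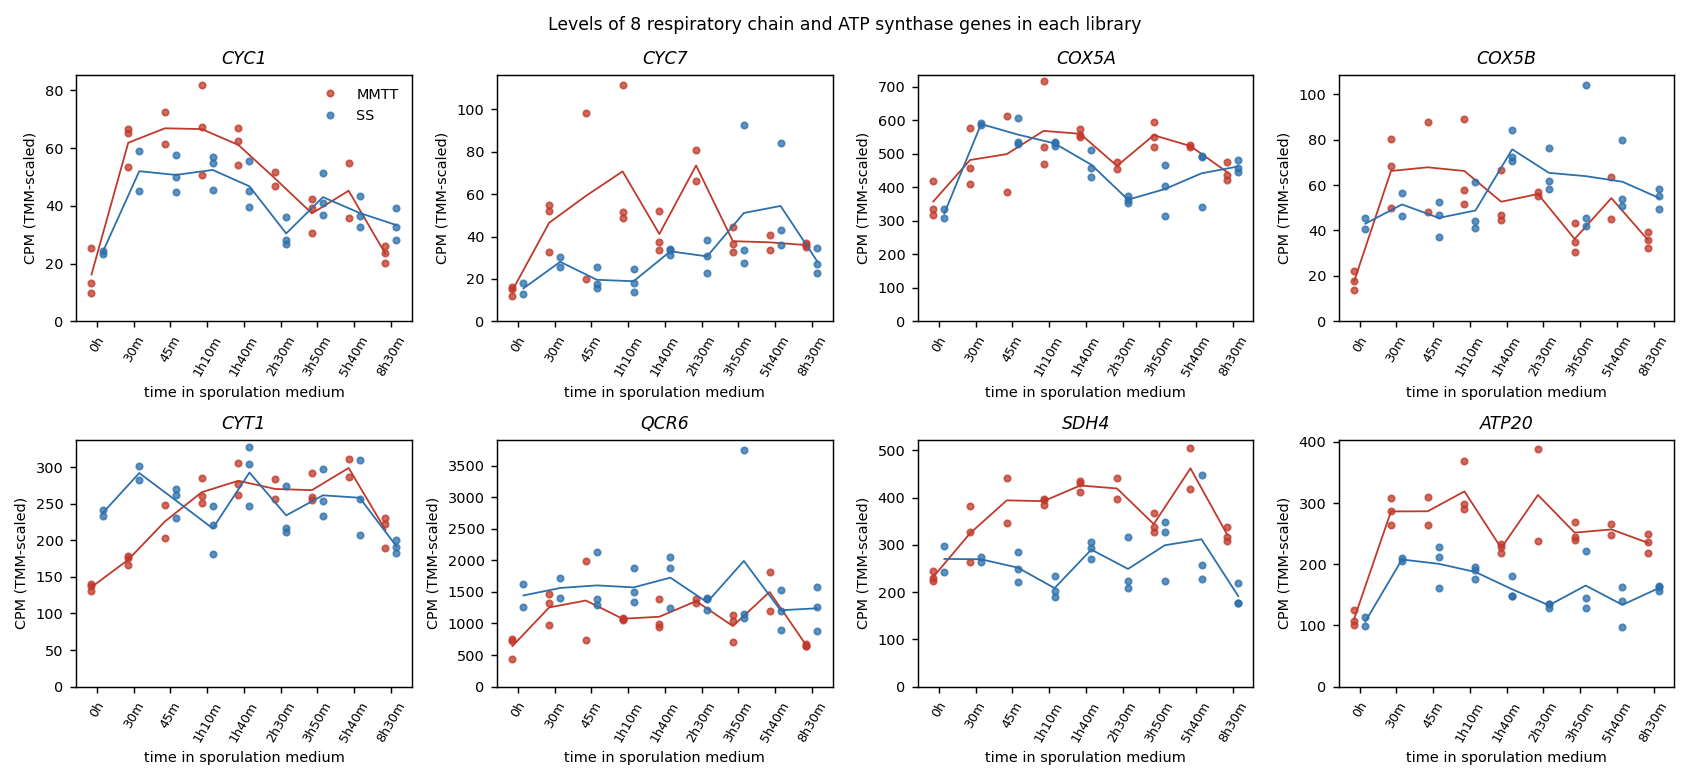
Scaled counts (TMM-scaled CPM, vertical axis from 0) of 8 members in every library at each of the 9 times (horizontal axis, categories), MMTT in red and SS in blue, with lines through the group means. CYC1 sits between 9.82 and 25.5 CPM in MMTT at 0h and between 53.5 and 66.8 CPM at 30m, and CYT1 in MMTT starts below both SS libraries at 0h.

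In MMTT genes of complexes III and IV and of the ATP synthase rose soon after transfer to sporulation medium and stayed up for hours, and the cytochrome c genes and COX5B rose most. In complex II 1 of 3 genes was higher at 30m and at 45m, and all 3 were at 1h10m. Of the 40 members, 36 were higher than at 0h at 1 or more of the 8 later times, and 7 were higher at all 8. Such counts over several times were not made for all genes, so they do not set the members apart. The largest count came at 1h10m, when 33 members were higher and only NDE2, an external NADH dehydrogenase, was lower. With an offset for coding length, given below, it came at 1h40m, with 24 members higher against 20 at 1h10m. Without that offset only 11 were higher and 5 were lower by 8h30m. Calls rest on quasi-likelihood F tests in edgeR, Benjamini-Hochberg adjusted across the 6419 genes that MMTT had for testing, at adjusted p under 0.05 with no fold minimum, and the median log2 change over all genes lay between -0.02 and 0.03 in MMTT. At 30m 24 members were higher and 2 lower (18.6% and 18.9% of all genes), with a median log2 change of 0.50. By 45m 23 members were higher and 1 lower (16.2% and 13.8% of all genes), with a median log2 change of 0.55. At 1h10m 33 members were higher and 1 lower (16% and 16.8% of all genes), with a median log2 change of 0.77. The share of members higher was above the share of all genes at each of these times, while the share lower was below it. With 1h40m in the medium, 26 members were higher and 0 lower (15.4% and 16% of all genes), with a median log2 change of 0.66. By 2h30m 23 members were higher and 1 lower (19.5% and 17.6% of all genes), with a median log2 change of 0.64. At 3h50m 22 members were higher and 1 lower (18.1% and 18.7% of all genes), with a median log2 change of 0.55. NDE2 was the member lower at 2h30m and 3h50m. After 5h40m 20 members were higher and 0 lower (17.1% and 17% of all genes), with a median log2 change of 0.55. Finally, at 8h30m 11 members were higher and 5 lower (23.5% and 21.9% of all genes), with a median log2 change of 0.28. Counts of higher and lower members moved by more than 1.5 times at 5 of the 8 times when 1 library was left out, and shifts of a single member are not listed here or further on. At 1h40m the counts were 16 and 0 without MMTT replicate 2 at 0h. At 2h30m the counts were 14 and 0 without MMTT replicate 2 at 2h30m. At 3h50m the counts were 13 and 0 without MMTT replicate 2 at 0h. At 5h40m the counts were 12 and 0 without MMTT replicate 2 at 0h and 9 and 0 without MMTT replicate 2 at 5h40m. At 8h30m the counts were 7 and 5 without MMTT replicate 1 at 0h, 4 and 4 without MMTT replicate 2 at 0h, 8 and 3 without MMTT replicate 1 at 8h30m and 7 and 4 without MMTT replicate 3 at 8h30m. Between 7 (8h30m) and 25 (1h10m) of the calls held in every such fit. With library totals in place of TMM the counts at 8h30m were 12 and 3.

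In SS 13 to 15 members were higher than at 0h in the first 3 samplings, and 2 to 9 at the later times. At 1 or more times 19 members were higher than at 0h, none at all 8 times, and 16 were never called. In SS too, these counts over several times were not made for all genes. NDE2 was lower at all 8 times. The test ran over 6350 genes, with 2 SS libraries at 0h where MMTT had 3, and the difference between the strains is tested separately below. The median over all genes lay between 0.00 and 0.07. In SS at 30m 13 members were higher and 1 lower (12.3% and 10.9% of all genes), with a median log2 change of 0.49. In SS at 45m 15 members were higher and 1 lower (16.8% and 17.1% of all genes), with a median log2 change of 0.48. By 1h10m in SS 13 members were higher and 1 lower (18% and 18.1% of all genes), with a median log2 change of 0.32. ATP synthase genes made up 8 or 9 of the members higher at each of these times. After 1h40m in SS 9 members were higher and 1 lower (15.2% and 15.4% of all genes), with a median log2 change of 0.32. By 2h30m in SS 2 members were higher and 3 lower (17.9% and 17.1% of all genes), with a median log2 change of -0.02. At 3h50m in SS 9 members were higher and 3 lower (20.3% and 17.7% of all genes), with a median log2 change of 0.17. The 2 members higher at 2h30m were ATP17, a subunit of the membrane part of the ATP synthase, and NDE1, the other external NADH dehydrogenase. At 5h40m in SS 3 members were higher and 6 lower (20.6% and 17.1% of all genes), with a median log2 change of 0.09. At 8h30m in SS 7 members were higher and 5 lower (22.2% and 20.1% of all genes), with a median log2 change of -0.02. In SS these counts moved by more than 1.5 times at 7 of the 8 times when 1 library was left out. At 30m the counts were 7 and 0 without SS replicate 2 at 0h, 7 and 0 without SS replicate 2 at 30m and 9 and 0 without SS replicate 3 at 30m. At 1h10m the counts were 8 and 1 without SS replicate 2 at 0h. At 1h40m the counts were 3 and 0 without SS replicate 2 at 0h, 4 and 1 without SS replicate 3 at 0h, 4 and 1 without SS replicate 2 at 1h40m and 6 and 0 without SS replicate 3 at 1h40m. At 2h30m the counts were 0 and 1 without SS replicate 3 at 0h and 2 and 1 without SS replicate 2 at 2h30m. At 3h50m the counts were 4 and 1 without SS replicate 2 at 0h and 3 and 1 without SS replicate 3 at 0h. At 5h40m the counts were 1 and 3 without SS replicate 2 at 0h, 0 and 2 without SS replicate 3 at 0h, 7 and 3 without SS replicate 1 at 5h40m and 1 and 6 without SS replicate 3 at 5h40m. At 8h30m the counts were 2 and 5 without SS replicate 2 at 0h, 3 and 2 without SS replicate 3 at 0h, 6 and 3 without SS replicate 2 at 8h30m and 6 and 3 without SS replicate 3 at 8h30m. Leaving out SS replicate 2 or 3 at 0h leaves 1 SS library there, which is then taken to vary like the other groups. With library totals the counts were 6 and 2 at 5h40m and 9 and 2 at 8h30m, and with DESeq2 size factors they were 5 and 7 at 8h30m.

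**Figure D2:**
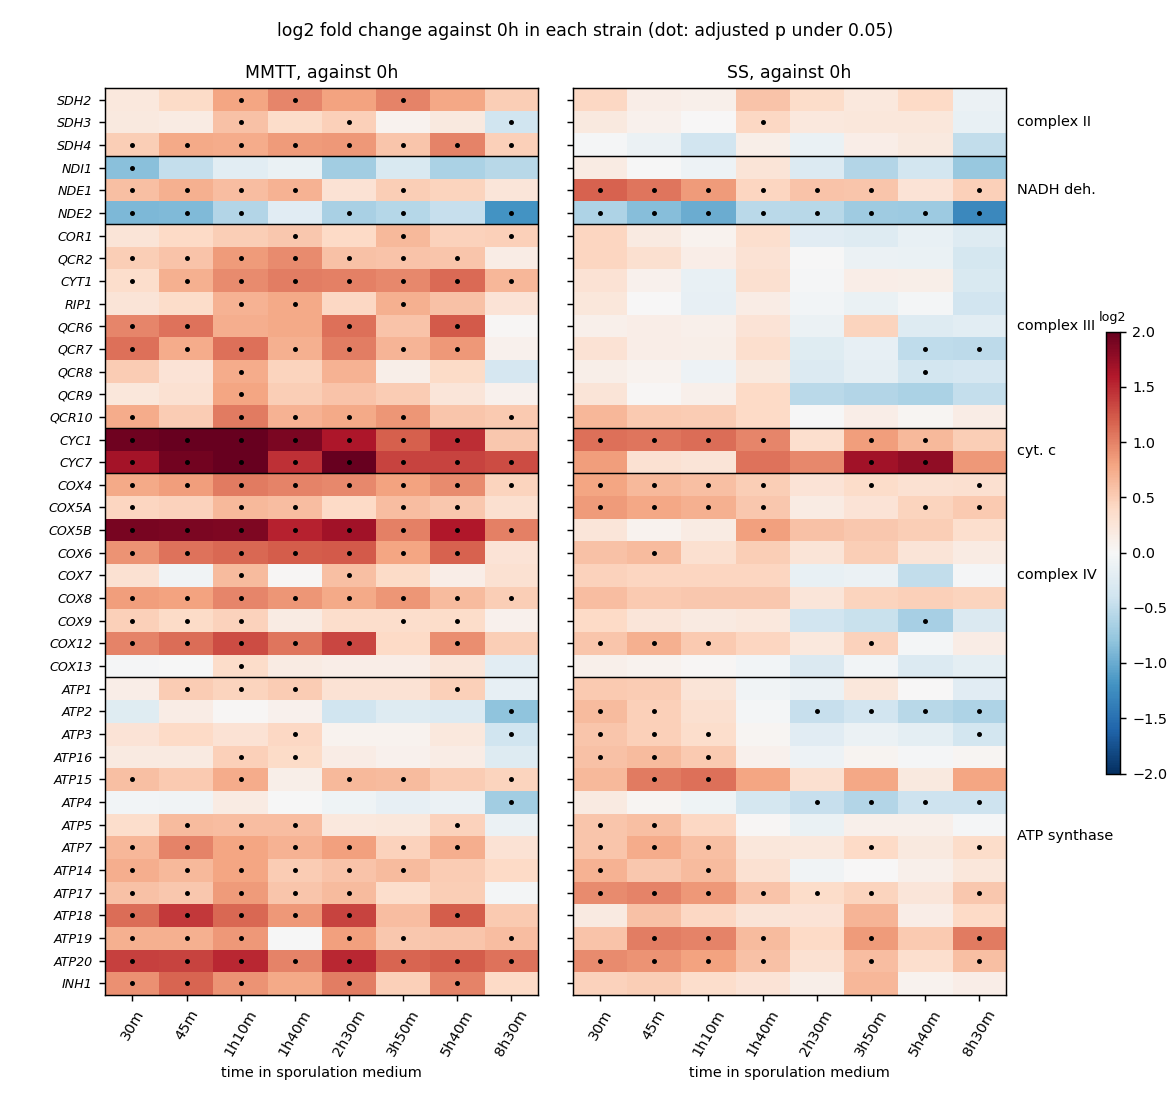
Log2 fold change against 0h (colour, red higher and blue lower at the later time) of the 40 members (rows, grouped by complex) at the 8 later times (columns), MMTT on the left and SS on the right, with a dot at adjusted p under 0.05. Red with dots covers 33 of 40 rows at 1h10m in MMTT and 13 in SS, and NDE2 is blue in both.

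The cytochrome c genes, the electron carriers between complexes III and IV, rose furthest in MMTT. CYC1 (YJR048W), the main form in air, had 53.5, 66.8 and 65.3 CPM at 30m, against 9.82, 13.3 and 25.5 CPM at 0h in MMTT, and no library at 30m overlapped those at 0h (log2 fold change 1.94 ± 0.267, adjusted p = 1.4e-05, where ± is the approximate standard error, SE, here and below). In SS it had 58.9 and 45.1 CPM at 30m, against 23.5 and 24.2 CPM at 0h (1.11 ± 0.230, adjusted p = 0.00104), again without overlap. CYC1 was higher in MMTT at every time up to 5h40m but not at 8h30m, where its log2 change was 0.54 (adjusted p = 0.116). CYC7 (YEL039C), the low-oxygen form, had 51.7, 111 and 49 CPM at 1h10m, against 15.5, 11.9 and 16.4 CPM at 0h in MMTT (2.25 ± 0.436, adjusted p = 5.5e-04). It was one of the 7 members higher in MMTT at all 8 times. In SS it passed the test only at 3h50m and 5h40m, where 1 library stood apart: the values were 84.2, 36.2 and 42.9 CPM at 5h40m, against 18 and 13.1 CPM at 0h (1.78 ± 0.454, adjusted p = 0.00391), and without SS replicate 3 at 0h the adjusted p was 0.0639.

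Complex IV, the oxidase, rose as a group in MMTT, and its subunit 5 isoforms moved unlike each other. All 9 genes were higher at 1h10m in MMTT (median log2 change 0.98), against 3 of 9 in SS (0.43). With the offset for coding length explained further on, 4 of 9 were higher in MMTT (0.56), against 2 of 9 in SS (0.16). Without it, 3 of 9 were higher than at 0h in MMTT at 8h30m, against 2 of 9 in SS. COX4 (YGL187C), a small zinc-binding subunit, had 349.9, 348 and 360.2 CPM at 30m, against 210.1, 179 and 236 CPM at 0h in MMTT (0.77 ± 0.130, adjusted p = 1.3e-04). In SS it had 449.9 and 434 CPM at 30m, against 251 and 258 CPM at 0h (0.78 ± 0.137, adjusted p = 1.8e-04), so neither strain's later libraries overlapped its own start. COX5A (YNL052W) was high in SS early, with 593 and 585 CPM at 30m, against 308 and 337 CPM at 0h (0.86 ± 0.173, adjusted p = 8.3e-04). In MMTT it had 520.1, 469 and 716 CPM at 1h10m, against 336, 318 and 420.1 CPM at 0h (0.65 ± 0.166, adjusted p = 0.00526). Its hypoxic partner COX5B (YIL111W) started low in MMTT and had 80.2, 68.3 and 50.1 CPM at 30m, against 17.6, 13.6 and 22 CPM at 0h (1.90 ± 0.286, adjusted p = 4.0e-05). In SS, COX5B passed the test at 1 time alone, with 70.5, 72.3 and 84.5 CPM at 1h40m, against 45.5 and 40.5 CPM at 0h (0.82 ± 0.295, adjusted p = 0.0378), and each of the 5 libraries of that comparison removed the call when left out (adjusted p 0.0529 to 0.199). With that offset COX4 at 30m in MMTT was 0.43 (adjusted p = 0.0521) and COX5A at 1h10m 0.43 (adjusted p = 0.166).

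Complex III, the cytochrome bc1 complex, rose in MMTT from a lower start and was hardly called in SS. Its median log2 difference, MMTT minus SS, was -0.67 at 0h and 0.18 at 1h10m. With the length offset these medians were -0.66 and -0.08. Of this complex only CYT1 differed in its course between the strains by the joint test given below. In MMTT 5, 4, 7, 6, 5, 6, 4 and 3 of its 9 genes were higher at the 8 times in order, and none was lower. In SS none was higher at any time, and 2 were lower at 5h40m and 1 at 8h30m. Under that length offset 4 were higher in MMTT at 1h10m. In SS 1 was then higher at 30m and 1 at 45m, and 3 were lower at 8h30m. CYT1 (YOR065W), cytochrome c1, was one of the 7 genes higher at all 8 times in MMTT. It had 251, 261 and 284 CPM at 1h10m, against 140.2, 131 and 137 CPM at 0h in MMTT (0.95 ± 0.110, adjusted p = 2.6e-06), and the libraries did not overlap. In SS its levels were 247, 221 and 181 CPM at 1h10m, against 241 and 233 CPM at 0h (log2 change -0.15, adjusted p = 0.548). QCR7 (YDR529C), a small subunit that faces the matrix, had 748, 712 and 609.6 CPM at 30m, against 285, 314 and 376 CPM at 0h in MMTT (1.10 ± 0.193, adjusted p = 2.0e-04). Late in SS it was below its start, at 365, 406 and 421 CPM at 8h30m, against 544 and 599 CPM at 0h (-0.52 ± 0.173, adjusted p = 0.0199), a call lost without SS replicate 3 at 0h or SS replicate 1 at 8h30m (adjusted p 0.14 and 0.0726), and with library totals in place of TMM (0.127). QCR6 (YFR033C) had 1389.9 and 1317 CPM at 2h30m, against 444, 729 and 753 CPM at 0h in MMTT (1.09 ± 0.323, adjusted p = 0.0118), which was lost without MMTT replicate 1 at either time (adjusted p 0.0614 and 0.0523).

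Complex II, which links the citric acid cycle to the chain, was called at every time in MMTT and once in SS. SDH4 (YDR178W), one of its membrane anchors, was higher in MMTT at all 8 times. It had 397 and 441 CPM at 2h30m, against 229, 244 and 223 CPM at 0h (0.87 ± 0.153, adjusted p = 1.7e-04). At 8h30m it was at 317, 338 and 309 CPM (0.47 ± 0.138, adjusted p = 0.00839), still above every 0h library. The other anchor, SDH3 (YKL141W), was lower by then, with 349, 400.0 and 346 CPM at 8h30m, against 475, 534 and 436 CPM at 0h (-0.40 ± 0.155, adjusted p = 0.0428), a call that 4 of its 6 libraries removed when left out (MMTT replicates 1 and 2 at 0h and 1 and 3 at 8h30m, adjusted p 0.0772 to 0.155), as did library totals (0.0833). SDH2 (YLL041C), the iron-sulfur subunit, was higher at 1h10m, 1h40m and 3h50m in MMTT. With the coding-length offset 0 of the 3 members were higher at 30m, 1 at 45m and 2 at 1h10m in MMTT. SDH1, the flavoprotein subunit and no member here, had 659, 702 and 550 CPM at 0h in MMTT. It had 400, 391 and 573 CPM at 30m, 617, 770 and 886 CPM at 1h40m and 361, 482 and 455 CPM at 8h30m. In SS the only complex II call was SDH3, with 467, 507 and 454 CPM at 1h40m, against 357 and 365 CPM at 0h (0.41 ± 0.128, adjusted p = 0.0184), lost without either 0h library or SS replicate 2 at 1h40m (adjusted p 0.0557 to 0.0942) and with the coding-length offset (0.0501).

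ATP synthase genes rose in both strains early, and subunits of its catalytic head and stalk fell late. In MMTT 8, 9, 11, 9, 8, 5, 6 and 3 of the 14 genes were higher at the 8 times in order, and in SS 8, 9, 8, 3, 1, 4, 0 and 4. Under the offset for length the counts at 8h30m were 1 in MMTT and 1 in SS, and that at 1h10m in MMTT was 7. ATP20 (YPR020W), subunit g, which helps pair the enzymes into dimers, was higher at all 8 times in MMTT. It had 238 and 389 CPM at 2h30m, against 108, 99.9 and 126 CPM at 0h (1.51 ± 0.176, adjusted p = 2.1e-06). In SS it had 210.2 and 205 CPM at 30m, against 99.1 and 113 CPM at 0h (0.95 ± 0.220, adjusted p = 0.00267), and no later library overlapped the start in either case. ATP19 (YOL077W-A), the other dimer-linked subunit, had 97, 121 and 126 CPM at 8h30m, against 51.6 and 60.1 CPM at 0h in SS (1.04 ± 0.235, adjusted p = 0.00102). ATP2 (YJR121W), the catalytic beta subunit, fell to 864, 912 and 1024 CPM at 8h30m in MMTT, against 1622, 1628 and 1642 CPM at 0h (-0.80 ± 0.165, adjusted p = 4.7e-04). In SS it fell to 1331, 1123 and 1005 CPM, against 1709.5 and 1860.2 CPM (-0.62 ± 0.141, adjusted p = 0.00107). ATP4 (YPL078C), a stator subunit, fell in both strains as well, with 525, 643 and 605 CPM at 8h30m, against 927, 808 and 1143 CPM at 0h in MMTT (-0.69 ± 0.134, adjusted p = 2.4e-04) and with 779, 737 and 744 CPM at 2h30m, against 965 and 1099.9 CPM at 0h in SS (-0.47 ± 0.146, adjusted p = 0.0162). The SS call was lost without SS replicate 3 at 0h or SS replicate 2 at 2h30m (adjusted p 0.166 and 0.052).

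INH1 (YDL181W), the inhibitor of ATP hydrolysis, was higher than at 0h at 5 of the 8 times in MMTT, with a wide spread. The calls were at 30m, 45m, 1h10m, 2h30m and 5h40m, each also made with the coding-length offset. At 30m it had 434, 491 and 314 CPM in MMTT, above every 0h library. Its values were 721 and 269 CPM at 45m, against 172, 207 and 285 CPM at 0h (1.16 ± 0.315, adjusted p = 0.0089). The 45m call rested on MMTT replicate 1, without which the adjusted p was 0.625. In SS it was called at no time, and its log2 changes there lay between 0.08 and 0.66. ATP3 (YBR039W), the gamma subunit of the rotor, had 417, 518 and 543 CPM at 8h30m, against 567, 593 and 797 CPM at 0h in MMTT (-0.40 ± 0.149, adjusted p = 0.0342), a call lost without MMTT replicate 3 at 0h or MMTT replicate 1 at 8h30m (adjusted p 0.236 and 0.165), and with library totals in place of TMM (0.0775).

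The 3 NADH dehydrogenases moved in opposite directions. NDE2 (YDL085W) fell in both strains, to 477, 562 and 504 CPM at 8h30m in MMTT, against 1258, 1359.8 and 916 CPM at 0h (-1.19 ± 0.171, adjusted p = 9.4e-06). In SS it fell to 645, 564 and 568 CPM, against 1677 and 1219.6 CPM (-1.28 ± 0.178, adjusted p = 4.7e-06), and in both strains the libraries at the 2 times were far apart. NDE1 (YMR145C), which acts on the same face of the membrane, had 1530.2 and 1533 CPM at 30m, against 696 and 649.8 CPM at 0h in SS (1.17 ± 0.179, adjusted p = 4.2e-05). In MMTT it had 1042, 1048 and 1301 CPM at 30m, against 742, 718 and 784 CPM at 0h (0.60 ± 0.181, adjusted p = 0.0132), a call lost without MMTT replicate 3 at 30m (adjusted p 0.0528). NDI1 (YML120C), the matrix-facing enzyme, was lower early in MMTT, with 154, 127 and 217 CPM at 30m, against 305, 318 and 269 CPM at 0h (-0.83 ± 0.287, adjusted p = 0.0277). That call was lost without any of 4 of its 6 libraries (MMTT replicates 1 and 2 at each of the times, adjusted p 0.0675 to 0.125) and with library totals (0.056), and NDI1 was called at no time in SS.

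Without an offset for coding length, the members called between the strains changed sides over time. In MMTT complex III genes and the hypoxic COX5B were lower than in SS before transfer, the large ATP synthase and complex III genes were lower at 30m, and from 1h10m to 5h40m most members called were higher, many of them small subunits. The number of members higher in MMTT was largest at 2h30m, with 17 higher and 0 lower (5 and 0 without MMTT replicate 2, and 3 and 0 with an offset for coding length, given below), and all 3 complex II genes were higher on average over the course. With that offset the members higher and lower were 4 and 3 at 1h10m and 1 and 3 at 1h40m. They were 2 and 2 at 3h50m and 2 and 1 at 5h40m. The comparison ran over 6031 genes in 1 fit of all 49 libraries, and log2 differences are MMTT minus SS, with a median over all genes between -0.06 and 0.03. The 2 MMTT libraries at 2h30m also differed in 12 marker genes of middle meiosis and spore formation, with a mean log2 CPM of 5.51 in replicate 1 and 7.77 in replicate 2, against 3.80 to 3.86 in SS, and the part of meiotic stage in these results was not tested. Pairs of counts for fits without 1 library are members higher and members lower.

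At 0h 2 members were higher and 6 lower in MMTT (7.16% and 7.63% of all genes), with a median log2 difference of -0.19. Leaving out SS replicate 2 gave 0 and 4 and SS replicate 3 gave 0 and 2. At 30m 3 members were higher and 12 lower in MMTT (18.1% and 21.8% of all genes), with a median log2 difference of -0.11. These counts became 1 and 7 without MMTT replicate 1, 1 and 9 without MMTT replicate 2, 1 and 5 without SS replicate 2 and 1 and 7 without SS replicate 3. By 45m 4 members were higher and 3 lower in MMTT (13.9% and 12% of all genes), with a median log2 difference of -0.09. With 1 library fewer there were 0 and 0 (without MMTT replicate 1), 10 and 9 (without MMTT replicate 3) and 2 and 2 (without SS replicate 1). Complex III held 5 of the 6 lower genes at 0h (its median -0.67) and the ATP synthase 5 of the 12 at 30m.

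At 1h10m 10 members were higher and 2 lower in MMTT (18.4% and 18% of all genes), with a median log2 difference of 0.18. Leaving out MMTT replicate 2 gave 5 and 0. After 1h40m 7 members were higher and 0 lower in MMTT (13% and 9.85% of all genes), with a median log2 difference of 0.22. These counts became 2 and 0 without MMTT replicate 1, 2 and 0 without MMTT replicate 2, 3 and 0 without SS replicate 1 and 0 and 0 without SS replicate 3. By 2h30m 17 members were higher and 0 lower in MMTT (15.7% and 15.8% of all genes), with a median log2 difference of 0.43. With 1 library fewer there were 5 and 0 (without MMTT replicate 2) and 9 and 0 (without SS replicate 1). At 2h30m the median difference was 0.64 in complex II, 0.21 in complex III, 0.46 in complex IV, 0.48 in the ATP synthase, 0.98 in the cytochrome c genes and -0.40 in the NADH dehydrogenases. Once the length offset was used these medians were 0.43 in complex II, -0.03 in complex III, 0.04 in complex IV, 0.05 in the ATP synthase, 0.48 in the cytochrome c genes and -0.24 in the NADH dehydrogenases.

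At 3h50m 6 members were higher and 2 lower in MMTT (9.27% and 10.7% of all genes), with a median log2 difference of 0.12. Leaving out MMTT replicate 1 gave 2 and 1, MMTT replicate 3 gave 6 and 0 and SS replicate 1 gave 5 and 0. At 5h40m 14 members were higher and 0 lower in MMTT (11.6% and 11.9% of all genes), with a median log2 difference of 0.32. These counts became 8 and 0 without MMTT replicate 1, 6 and 0 without MMTT replicate 2, 8 and 0 without SS replicate 2 and 9 and 0 without SS replicate 3. Finally, at 8h30m 3 members were higher and 4 lower in MMTT (20.3% and 21.9% of all genes), with a median log2 difference of -0.08. With 1 library fewer there were 2 and 0 (without MMTT replicate 1), 2 and 2 (without MMTT replicate 3) and 2 and 0 (without SS replicate 1). The share of members lower in MMTT was under that of all genes at every time after 30m. With library totals in place of TMM the higher and lower members were 5 and 2 at 45m, 11 and 0 at 3h50m and 2 and 8 at 8h30m. Averaged over the 9 times, 18 members were higher and 9 lower in MMTT (35.2% and 36.9% of all genes), with a median log2 difference of 0.12.

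In the average over the course 20 of 27 calls held in all 49 fits that left out 1 library, with between 22 and 29 members called. The calls at single times that held in every fit were CYT1 at 0h, ATP1, ATP2, ATP3, CYT1 and ATP19 at 30m, SDH3, SDH4, CYC7, COX13 and ATP20 at 1h10m, QCR8, SDH3, ATP19 and ATP20 at 2h30m, COX9, ATP17, COX13 and ATP20 at 5h40m, and SDH4 and ATP20 at 8h30m. None held at 45m, 1h40m or 3h50m.

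**Figure D3:**
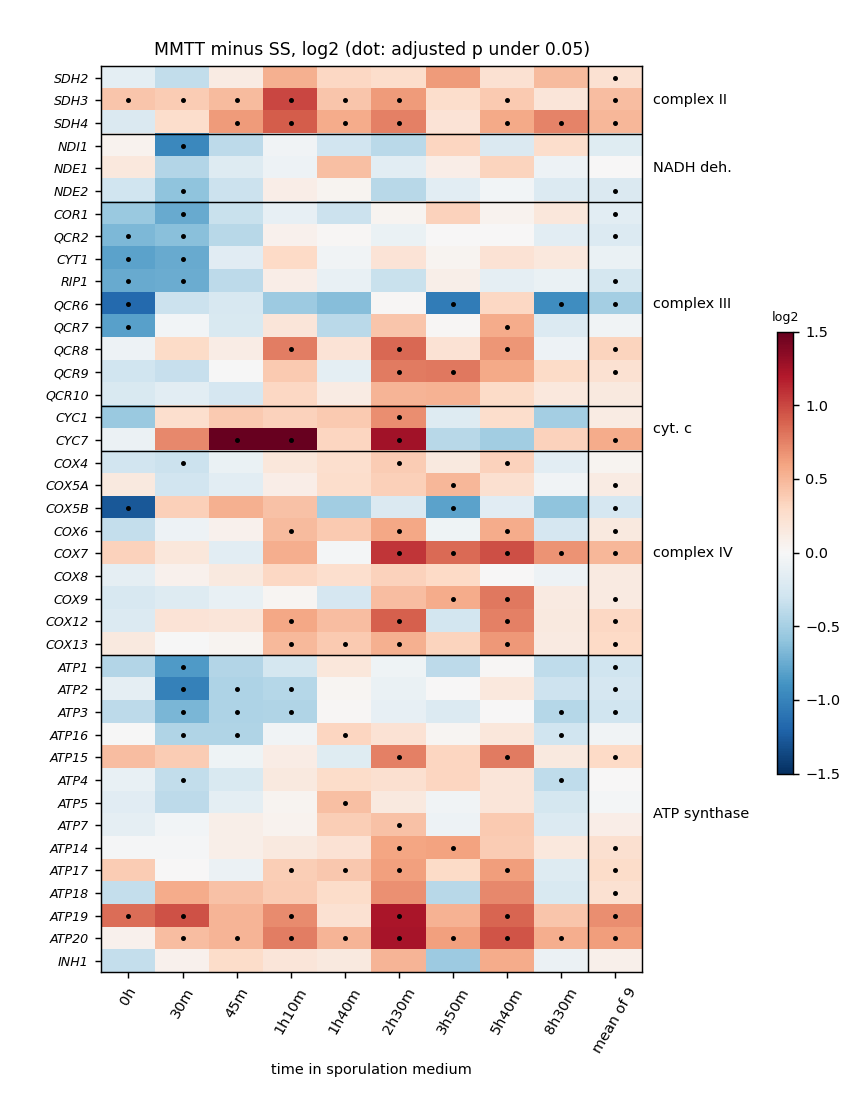
Log2 difference MMTT minus SS (colour, red higher and blue lower in MMTT) of the 40 members (rows, grouped by complex) at the 9 times and averaged over them (columns), with a dot at adjusted p under 0.05. The 17 dots at 2h30m are all red, and the SDH3, ATP19 and ATP20 rows are red at all 9 times.

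Complex III held most of the members that differed before transfer. At 0h CYT1 had 140.2, 131 and 137 CPM in MMTT, against 241 and 233 CPM in SS, with all MMTT libraries below both SS libraries (-0.80 ± 0.148, adjusted p = 3.1e-04). At 30m it had 166, 176 and 178 CPM in MMTT, against 301 and 283 CPM in SS (-0.75 ± 0.146, adjusted p = 1.7e-04), again without overlap. QCR7 had 285, 314 and 376 CPM in MMTT, against 544 and 599 CPM in SS at 0h (-0.81 ± 0.187, adjusted p = 0.00311), a call lost without SS replicate 3 (adjusted p 0.0634). QCR6 was the member with the lowest average difference in MMTT (-0.51 ± 0.119, adjusted p = 3.0e-04). At 0h it had 444, 729 and 753 CPM in MMTT, against 1624 and 1264 CPM in SS (-1.17 ± 0.368, adjusted p = 0.028), and each library but MMTT replicate 3 removed that call when left out (adjusted p 0.0526 to 0.187). QCR8 (YJL166W), a small subunit beside cytochrome b, went the other way at 2h30m, with 611 and 608 CPM in MMTT, against 300.3, 367 and 342 CPM in SS (0.86 ± 0.209, adjusted p = 0.0022), and had the highest average difference of complex III (0.33 ± 0.0675, adjusted p = 5.2e-05). Within this complex the longer genes COR1, QCR2 and RIP1 were lower on average with QCR6, and the short genes QCR8 and QCR9 were higher. With the coding-length offset QCR8 was 0.26 (adjusted p = 0.216) at 2h30m and -0.01 (adjusted p = 0.797) on average, and QCR9 turned to -0.18 (adjusted p = 0.221) on average.

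The 2 subunit 5 isoforms and cytochrome c isoforms differed between the strains at different times. COX5B had 17.6, 13.6 and 22 CPM in MMTT, against 45.5 and 40.5 CPM in SS at 0h (-1.27 ± 0.317, adjusted p = 0.00586), with no overlap, though the adjusted p was 0.0628 without SS replicate 2. At 3h50m it had 43.3, 35.1 and 30.4 CPM in MMTT, against 104, 42.2 and 45.5 CPM in SS (-0.80 ± 0.267, adjusted p = 0.0298). Without SS replicate 1, the library with the lowest SS length slope, the adjusted p was 0.569, and without MMTT replicate 2 or 3 it was 0.0859 or 0.133. COX5A did not pass the test at 0h (0.15 ± 0.176, adjusted p = 0.61) and was higher at 3h50m (0.49 ± 0.156, adjusted p = 0.0214), where the adjusted p was 0.0713 without MMTT replicate 2 and 0.132 without SS replicate 1. CYC7 had 51.7, 111 and 49 CPM in MMTT, against 24.9, 18 and 13.9 CPM in SS at 1h10m (1.90 ± 0.410, adjusted p = 4.7e-04), where the lowest MMTT library was above the highest SS one. CYC1 passed the test once, at 2h30m, with 51.9 and 47 CPM in MMTT, against 26.9, 28.2 and 36.3 CPM in SS (0.70 ± 0.247, adjusted p = 0.0287), a call that 4 of the 5 libraries removed when left out (all but SS replicate 3, adjusted p 0.0815 to 0.116). COX7 (YMR256C), a small structural subunit, had 487 and 757 CPM in MMTT, against 273, 382 and 234 CPM in SS at 2h30m (1.07 ± 0.294, adjusted p = 0.00589), a call lost without MMTT replicate 2 (adjusted p 0.167), and the highest average difference of complex IV (0.50 ± 0.0948, adjusted p = 2.0e-05). With the coding-length offset the adjusted p was 0.111 for COX5A at 3h50m, 0.636 for CYC1 and 0.665 for COX7 at 2h30m, and 0.616 for COX7 on average, while COX5B at 3h50m had 0.0771 with library totals.

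In complex II both membrane anchors were higher in MMTT. SDH3 was called at 7 of the 9 times, all higher, and at 1h10m it had 639, 870.3 and 693 CPM in MMTT, against 409.6, 376 and 318 CPM in SS (1.00 ± 0.127, adjusted p = 2.1e-07). SDH4 had 385, 395 and 397 CPM in MMTT, against 235, 201 and 189 CPM in SS at the same time (0.91 ± 0.181, adjusted p = 1.8e-04). Neither gene's strains overlapped. With the coding-length offset SDH3 passed the test at 1h10m and 2h30m, and the calls at 0h, 30m, 45m, 1h40m and 5h40m were lost (adjusted p 0.105, 0.627, 0.113, 0.149 and 0.284). At 8h30m SDH4 was still apart, with 317, 338 and 309 CPM in MMTT, against 219.8, 177 and 177 CPM in SS (0.75 ± 0.181, adjusted p = 9.9e-04). SDH2 was called at no single time and averaged 0.23 ± 0.106, adjusted p = 0.0494, a call lost in 20 of the 49 fits that left out 1 library (adjusted p up to 0.157, without MMTT replicate 3 at 45m) and with the coding-length offset (0.182). SDH1, the flavoprotein subunit and no member here, was lower in MMTT at 30m (-0.78 ± 0.238, adjusted p = 0.00978) and passed the test at no other single time.

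Among ATP synthase genes ATP19 and ATP20, the dimer-linked subunits, were higher in MMTT, and ATP1, ATP2 and ATP3 of the F1 head and rotor were lower at 30m. ATP20 had 238 and 389 CPM in MMTT, against 135, 134 and 129 CPM in SS at 2h30m (1.24 ± 0.185, adjusted p = 3.9e-06). It was higher in MMTT at every time but 0h, with 249.8, 236 and 219 CPM in MMTT, against 164, 163 and 156 CPM in SS at 8h30m (0.54 ± 0.168, adjusted p = 0.0086). ATP19 had the highest average difference of all 40 members (0.70 ± 0.0730, adjusted p = 1.8e-10), and at 2h30m it had 138 and 209 CPM in MMTT, against 78.3, 80.4 and 64.3 CPM in SS (1.22 ± 0.226, adjusted p = 1.0e-04). The groups did not overlap in any of these, and with the coding-length offset ATP19 at 2h30m was 0.43 (adjusted p = 0.171) and the ATP20 calls at 30m, 45m and 1h40m were lost (-0.04, 0.27 and 0.29, adjusted p 0.879, 0.246 and 0.151). On the other side, ATP2 had 1325, 1233 and 1579 CPM in MMTT, against 2896 and 2673 CPM in SS at 30m (-1.01 ± 0.164, adjusted p = 1.3e-05). ATP1 (YBL099W), the alpha subunit, had 1667, 1709.6 and 1642 CPM in MMTT, against 3273 and 2773 CPM in SS (-0.85 ± 0.202, adjusted p = 0.00131). ATP3 had 771, 735 and 841 CPM in MMTT, against 1294 and 1231 CPM in SS (-0.69 ± 0.145, adjusted p = 3.9e-04), and it had the lowest average of the complex (-0.30 ± 0.0468, adjusted p = 6.6e-07). In these F1 genes each MMTT library at 30m was below both SS libraries. All 3 encode parts of the F1 head and its rotor, and ATP1 and ATP2 were chosen for description after their values were seen. Other F1 genes differed in direction, ATP15 being higher at 2h30m and 5h40m (with the coding-length offset -0.09, adjusted p = 0.831, and 0.09, adjusted p = 0.86) and ATP16 lower at 30m, 45m and 8h30m and higher at 1h40m.

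NDI1 and NDE2 were the NADH dehydrogenases that differed, both lower in MMTT at 30m. NDI1 had 154, 127 and 217 CPM in MMTT, against 320.4 and 329 CPM in SS (-0.96 ± 0.346, adjusted p = 0.0261), a call removed without any library but MMTT replicate 3 (adjusted p 0.0709 to 0.112) and with library totals (0.0507). NDE2 had 547, 638 and 690.1 CPM in MMTT, against 909 and 991 CPM in SS (-0.60 ± 0.189, adjusted p = 0.0111), lost without MMTT replicate 1 or SS replicate 3 (adjusted p 0.0562 and 0.0927) and with the coding-length offset (0.056). NDE1 passed the test at no single time and averaged 0.01 ± 0.0597, adjusted p = 0.902. HAP4, the regulated subunit of the CCAAT-binding complex, was also lower in MMTT at 30m, with 341, 294 and 579.5 CPM in MMTT, against 710.1 and 725 CPM in SS (-0.82 ± 0.275, adjusted p = 0.0171), and passed the test at no other time. The values at 30m stood beside MMTT length slopes of -0.239, -0.270 and -0.0655 and SS slopes of 0.0938 and 0.136.

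Whether the course over time itself differed between the strains was tested with a joint F test of the 8 interaction terms in edgeR, at the study's adjusted p under 0.001. By that rule 14.8% of all genes (895 of 6031) and 2 of the 40 members differed, CYT1 (adjusted p = 4.2e-05) and ATP16 (adjusted p = 7.8e-04). CYT1 was the gene described above that was low in MMTT at 0h and 30m, and its call held in all 49 fits that left out 1 library. ATP16 (YDL004W), the delta subunit of the F1 rotor, had 491, 458 and 517 CPM in MMTT, against 689 and 644 CPM in SS at 30m (-0.45 ± 0.124, adjusted p = 0.00486). At 1h40m it had 567, 602 and 574 CPM in MMTT, against 435, 488 and 468 CPM in SS (0.33 ± 0.112, adjusted p = 0.0324), so the side had turned without overlap at either time. At 8h30m it had 339, 388 and 357 CPM in MMTT, against 498, 418 and 423 CPM in SS (-0.30 ± 0.112, adjusted p = 0.0278). These single-time calls were lost without SS replicate 2 at 30m (adjusted p 0.0597), without any library but SS replicate 2 at 1h40m (0.0538 to 0.127), and without MMTT replicate 1 or 3 or SS replicate 1 at 8h30m (0.0926 to 0.171). With the coding-length offset those of the later 2 times had adjusted p = 0.564 and 0.125. The ATP16 interaction held in 16 of the 49 fits, with adjusted p 0.000165 to 0.00266 (highest without SS replicate 2 at 30m). At adjusted p under 0.05, 23 of the 40 members passed, against 43.3% of all genes. The other members did not pass at 0.001, which does not show that their courses were alike in the strains.

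The strain difference followed coding length at many times, among the members as among all genes. Spearman's rho between the log2 difference and coding length was -0.74 across the members and -0.46 across all genes at 30m, -0.76 across the members and -0.45 across all genes at 2h30m, -0.68 across the members and -0.38 across all genes at 5h40m and -0.25 across the members and -0.04 across all genes at 8h30m, over 40 members and 5711 genes that share these libraries. At 2h30m the 11 members up to 300 bases had a median difference of 0.75, beside 0.78 for all genes of that length, and the 6 members of 1200 to 2000 bases had -0.13, beside -0.15. With a length trend of each library taken out as an offset, chosen after seeing the data, the members counted higher and lower in MMTT were 0 and 10 at 0h, 0 and 23 at 30m, 2 and 3 at 45m, 4 and 3 at 1h10m, 1 and 3 at 1h40m, 3 and 0 at 2h30m, 2 and 2 at 3h50m, 2 and 1 at 5h40m, 2 and 4 at 8h30m, and 6 and 16 on average. The count of higher members at 2h30m was thus 3 with the offset and 17 without it, and that of lower members at 30m 23 with it and 12 without.

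Some results were called with and without the length offset. Of the 18 members higher on average 5 were also higher with it, SDH3, SDH4, CYC7, ATP19 and ATP20, and of the 9 lower 8 were also lower, ATP1, ATP2, ATP3, COX5B, NDE2, QCR2, QCR6 and RIP1. CYT1 at 0h was -0.79 (adjusted p = 2.5e-04) on the log2 scale with it, SDH3 at 1h10m 0.82 (adjusted p = 6.2e-06), SDH4 at 8h30m 0.77 (adjusted p = 9.2e-05) and ATP20 at 2h30m 0.73 (adjusted p = 0.00111). The CYT1 interaction had adjusted p = 1.6e-05 and that of ATP16 0.0177, while COX5B and CYC7 passed at 0.001 only with the offset. Against 0h, the members higher in MMTT with the offset numbered 13, 19, 20, 24, 17, 19, 18 and 6 at the 8 times in order, and those higher in SS 12, 15, 10, 7, 1, 3, 2 and 2. The rise of CYC1 at 30m in MMTT was 1.53 (adjusted p = 2.4e-04), that of COX5B 1.53 (adjusted p = 4.4e-06) and that of CYT1 at 1h10m 0.93 (adjusted p = 3.8e-06).

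**Figure D4:**
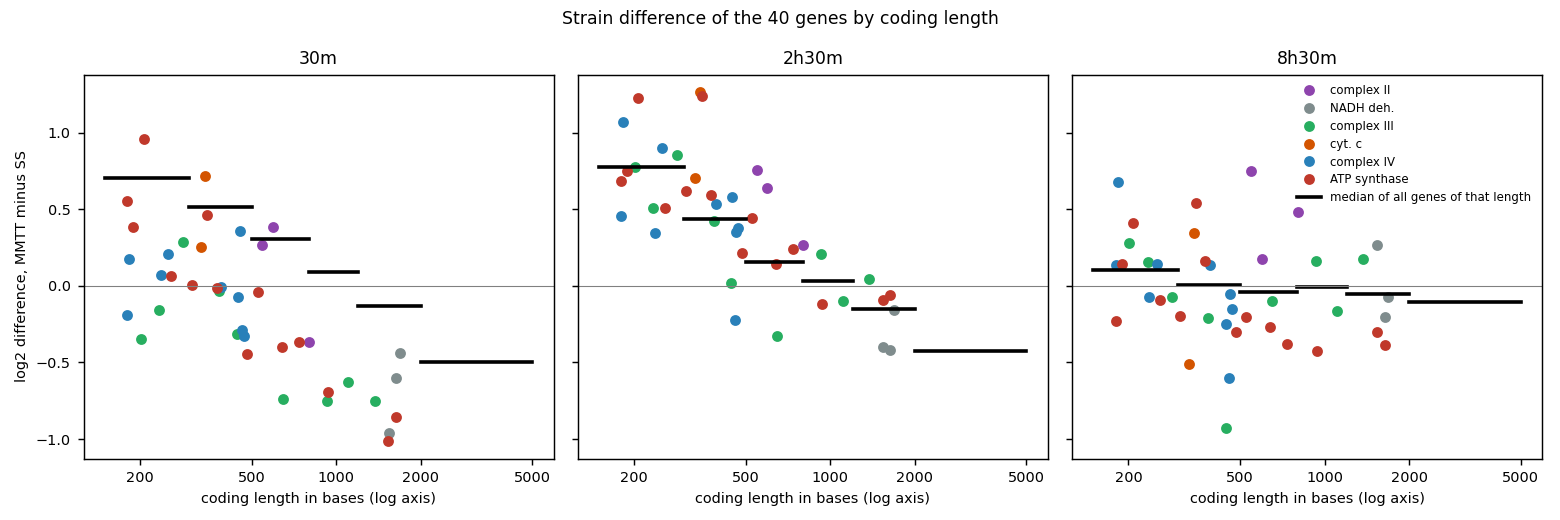
Log2 difference MMTT minus SS (vertical axis) of the 40 members against coding length in bases (horizontal log axis) at 30m, 2h30m and 8h30m, coloured by complex, with black bars for the median of all genes in each length class. At 30m and 2h30m points and bars both fall with length, and at 8h30m the bars are nearly level.

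Genes around the members did not move as 1 block with them. Of 30 assembly factors of the complexes, 15 stood above SS in MMTT and 3 below it at 1h10m (18.4% and 18% of all genes) and 21 and 7 on average (35.2% and 36.9%), yet against 0h 1 was higher and 7 were lower in MMTT at 1h10m (16% and 16.8% of all genes), where 33 members were higher. With the coding-length offset the assembly factors between the strains counted 13 higher and 2 lower at 1h10m and 18 higher and 8 lower on average. Of 7 regulators (the Hap2/3/4/5 complex, HAP1, ROX1 and MOT3), none was higher and 4 were lower in MMTT at 30m (18.1% and 21.8% of all genes). ROX1, the hypoxic repressor, had 35.3, 30.7 and 102 CPM in MMTT, against 249 and 231 CPM in SS (-2.06 ± 0.613, adjusted p = 0.00792). Of 7 other subunits and paralogs, COX26, a small protein of the respiratory supercomplex, was higher in MMTT at 8 of 9 times. At 1h10m it had 259.6, 388 and 247 CPM in MMTT, against 75.7, 75.5 and 48.8 CPM in SS (2.16 ± 0.356, adjusted p = 1.4e-05), with no overlap. RCF1, a supercomplex factor, was higher in MMTT at 7 of 9 times, with 189.8 and 231 CPM in MMTT, against 84.8, 84 and 101 CPM in SS at 2h30m (1.23 ± 0.268, adjusted p = 7.0e-04). These counts of times were not made for all genes. No values with the coding-length offset are given here for COX26, RCF1, ROX1 or HAP4. At 2h30m the median strain difference was 0.78 over all genes up to 300 bases and 0.44 over those of 300 to 500 bases. Of the 7 subunits encoded in mitochondrial DNA, 6 passed the filter, and 4 of them were higher in MMTT at 2h30m (15.7% of all genes) and 5 at 5h40m (11.6%), with none lower. Some had few counts and uneven replicates. At 2h30m COX3 had 20.0 and 4.54 CPM in MMTT, against 0.193, 0 and 0.292 CPM in SS. COB had 16.8 and 3.24 CPM, against 0, 0.297 and 0.877 CPM. OLI1 was better counted, with 78.8 and 65.8 CPM, against 33.2, 38.9 and 12.9 CPM. How mRNA isolation captured these transcripts was not tested.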

How the data were processed

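For 54 libraries, mRNA isolated from total RNA went into a directional preparation and was sequenced from both ends on an Illumina NovaSeq. According to the methods, the authors took out rRNA reads computationally, aligned the rest with STAR and made a table of raw counts per gene (read counts, not normalized, as deposited, for 6571 genes); FastQC was used for quality control, and versions, annotation and the strand setting are not given in the sources used here. From these counts, edgeR 4.0.16 in R 4.3.3 with limma 3.58.1 fitted a quasi-likelihood model across all genes with TMM scaling, once over 18 groups of strain and time and once per strain against 0h. The strain fit kept genes that reached 3 CPM in 3 or more libraries, and the fits against 0h those that reached 0.5 CPM in 3 or more libraries of the strain. Adjusted p is Benjamini-Hochberg over all genes tested, called at 0.05 (interaction 0.001), and the SE is the log2 change over the square root of F. The 5 libraries the study left out entered only an alternative. The 54 replicate pairs held no identical pair and differed beyond sampling noise (lowest chi-square per degree of freedom 4.85).

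The members and lists were chosen with earlier results of these data known. Genes described singly were COX5A, COX5B, CYC1, CYC7, NDI1, NDE1, NDE2 and INH1, and in each complex the gene with the smallest interaction p, the highest and lowest average strain difference and the largest called change against 0h at 2h30m and 8h30m in each strain. ATP1, ATP2, ATP15, ROX1, COX26 and RCF1, and times other than these, were chosen after their values were seen. Alternatives were other scalings, filters, fold minimums, all 54 libraries, leaving out each library, a replicate block, DESeq2 1.42.0, and, added after seeing the data, offsets for a loess trend (span 0.5) of log2 CPM with coding length. Coding lengths, all without UTRs, and sequences came from RefSeq R64 (5906 of 6571 genes matched) with Python 3.11.15. The main edgeR fit and its strain, time and interaction tests were checked on simulated counts without a length trend. The fits with coding-length offsets and those of DESeq2 were not checked in this way.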

Additional observations from a re-analysis of the deposited data

Results flagged for a closer look

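The courses of CYT1 and ATP16 over time differed between the strains by the joint test of the interaction terms in edgeR (adjusted p = 4.2e-05 for CYT1 and 0.000777 for ATP16). The CYT1 difference lay at the first times, where MMTT was lower, and the ATP16 difference was called lower at 30m and higher at 1h40m. That 1h40m call was lost without any library but SS replicate 2 and with the coding-length offset (0.14, adjusted p = 0.564). With the offset the joint test gave ATP16 an adjusted p of 0.0177. The CYT1 call held in all 49 fits without 1 library and the ATP16 call in 16 of them.

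MMTT replicate 2 at 45m, a library that the study left out, carried a signal outside the comparisons. The 12 marker genes of middle meiosis and spore formation had a mean log2 CPM of 8.73 there, against 4.78 and 4.31 in the other MMTT libraries at 45m and 3.53 to 3.69 in the SS libraries at 45m. What sets this library apart was not tested.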

How the results depend on the processing

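Counts of members called depended most on a fold minimum, on coding length and on single libraries. With an absolute log2 fold change over 1 asked for as well, the strain comparison called 2, 1, 1, 1, 0, 4, 1, 0 and 0 members at the 9 times in order and 0 on average, MMTT against 0h 6, 9, 10, 6, 11, 4, 8 and 4 and SS against 0h 2, 4, 2, 0, 0, 1, 1 and 2. With an absolute log2 fold change over 2 these counts were 0, 0, 0, 0, 0, 0, 0, 0 and 0 and 0 between the strains, 0, 1, 2, 0, 1, 0, 0 and 0 in MMTT and 0, 0, 0, 0, 0, 0, 0 and 0 in SS. With the coding-length offsets, added after seeing the data, they were 10, 23, 5, 7, 4, 3, 4, 3 and 6 and 22 between the strains, 15, 20, 21, 24, 18, 20, 18 and 12 in MMTT and 13, 16, 11, 8, 5, 7, 9 and 12 in SS, and the interaction called 3. The interaction called 2 members in the fit reported, 10 by DESeq2's likelihood ratio test, 1 without a filter on low counts and 23 at adjusted p under 0.05. With all 54 libraries, 3 members were called between the strains at 1h40m and 5 at 3h50m. The average strain difference of the ATP synthase genes had a median of 0.090, which was 0.15 with library totals and 0.032 with all 54 libraries. Library totals moved the median of all genes by -0.06 to 0.16 (log2) against TMM. With the coding-length offsets the median over all members was -0.55 at 30m, -0.031 at 1h10m, 0.039 at 1h40m, 0.042 at 2h30m and 0.092 at 5h40m between the strains, 0.24, 0.52 and 0.23 at 30m, 1h10m and 2h30m in MMTT against 0h, and 0.21 at 45m in SS. The median average strain difference was then 0.33 in complex II, -0.21 in complex III, -0.072 in complex IV and 0.058 for cytochrome c. The coding-length offsets also turned 19 single calls round: -0.041 for ATP20 at 30m, -0.026 for ATP17 at 1h10m, -0.025 for QCR9 and -0.094 for ATP15 at 2h30m, and -0.29 for COX9, -0.040 for ATP17, -0.18 for QCR9, -0.057 for COX6, -0.015 for QCR8, -0.072 for COX12, -0.0037 for ATP14, -0.22 for ATP18, -0.064 for COX5A and -0.12 for ATP15 on average between the strains, and in MMTT against 0h -0.047 for COX9 at 30m, -0.015 for COX9 at 1h10m, -0.069 for COX7 and -0.030 for ATP15 at 2h30m and -0.12 for COX9 at 5h40m. The offsets take out by construction whatever follows coding length, and for the other settings the cause was not tested.

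Without 1 library at a time the strain comparison called between the following lowest and highest counts: 2 to 9 at 0h, 6 to 15 at 30m, 0 to 19 at 45m, 5 to 11 at 1h10m, 0 to 6 at 1h40m, 5 to 17 at 2h30m, 3 to 9 at 3h50m, 6 to 10 at 5h40m and 2 to 6 at 8h30m, and 22 to 29 on average. Against 0h the counts were 19 to 29, 18 to 27, 26 to 34, 16 to 25, 14 to 24, 13 to 21, 9 to 22 and 8 to 15 in MMTT and 7 to 10, 12 to 16, 9 to 13, 3 to 7, 1 to 5, 4 to 15, 2 to 10 and 5 to 9 in SS at the 8 times in order, and the interaction called 1 to 8. The median log2 change of all members in MMTT at 2h30m against 0h lay between 0.42 and 0.79. The median average difference of the NADH dehydrogenases lay between -0.22 and -0.11. The median average difference of the ATP synthase lay between 0.055 and 0.17. Of 122 member calls between the strains and 285 against 0h, 30 and 33 were lost with all 54 libraries, 3 and 6 with DESeq2 size factors, 10 and 11 with library totals, 7 and 3 without the filter, 1 and 0 by DESeq2's Wald test and 56 and 73 with the coding-length offsets, and none of them turned round except the 19 above. Genes of the related lists were not refitted without single libraries.

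Deviations of same-numbered libraries of the strains at a time correlated between -0.321 and 0.192 over 22 pairs (mean -0.068). Within a strain the mean correlation of same-numbered libraries was 0.010. Such correlations cannot show whether same-numbered libraries share a culture. With the replicate block the strain comparison called 8, 12, 8, 12, 8, 17, 8, 12 and 7 members at the 9 times in order and 24 on average, MMTT 26, 25, 34, 26, 25, 22, 23 and 16 and SS 14, 17, 13, 8, 5, 12, 7 and 10 at the 8 later times, and the interaction 2, and 9 and 13 calls were lost between the strains and against 0h. Depth limits the least abundant members most, and groups of 2 libraries limit every call at 0h and 30m in SS and at 45m, 2h30m and 5h40m in MMTT.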
